A study of Mus musculus with 2 samples.

Results

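The genes described here are 36 extracellular matrix genes of the mouse, out of 32285 genes in the count tables. The list was given by gene name, chosen with earlier results of these data known, and comprises 6 fibrillar collagen genes, 7 basement membrane genes, 4 genes of collagens VI and XII, 4 proteoglycan genes, 4 elastic fibre genes, 6 adhesive and matricellular genes, 2 inhibitors of calcification or proteolysis and 3 genes of collagen folding and crosslinking. Droplet single-cell RNA-seq was done on leukocytes sorted by flow cytometry from MC38 tumours on day 21. MC38 is a transplantable mouse colon carcinoma line. The study has 1 group with 2 replicate libraries, and the labels name no genotype, treatment, strain, age or host sex for either and do not say that the replicates came from separate animals.

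Extracellular matrix is the protein meshwork outside cells. Fibrillar collagens give it tensile strength, laminins, nidogen, perlecan and collagen IV form the sheet-like basement membrane under epithelium and around vessels, and fibronectin and matricellular proteins link matrix to cell surface receptors. In tumours most matrix is laid down by fibroblasts, and carcinoma cells and macrophages add some of its parts.

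Each barcode was placed in 1 of 5 classes by its counts of unique molecular identifiers (UMIs, the molecules counted after removal of PCR copies). Col1a1-high barcodes held 3 or more UMIs of Col1a1. Immune-negative barcodes held 0 UMIs of Ptprc, Tyrobp, Fcer1g and Laptm5, and were split into Mgp-positive (2 or more Mgp UMIs) and Mgp-low (0 or 1). C1q macrophages held 5 or more UMIs of C1qa, C1qb and C1qc together, at least 1 UMI of the 4 immune genes and 0 of Cd3d, Cd3e and Cd3g, and all remaining barcodes were called other. Of the 36 genes, Mgp and Col1a1 were therefore used in a gate, and their values across these classes are given only as a description. All levels below are counts per 1000000 UMIs of the class in that library (CPM), with exact Poisson 95% intervals in the plots. They are 3′ tag counts, and they are compared between classes and libraries for the same gene, not between genes.

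After filtering, 2378 barcodes of replicate 1 and 2801 of replicate 2 were kept, with medians of 1488.5 and 1381 UMIs and 0 barcodes in common. Immune-negative barcodes made up 26.9% of replicate 1 (640 barcodes, all Mgp-low) and 30.8% of replicate 2 (209 Mgp-positive and 653 Mgp-low), although the label of both libraries says immune cells. C1q macrophages numbered 1002 in replicate 1 and 663 in replicate 2. Col1a1-high barcodes numbered 1 in replicate 1 and 38 in replicate 2, where 29 of the 38 held 0 UMIs of the 4 immune genes. Epithelial markers were at or near 0 in immune-negative barcodes, with 1 UMI in replicate 1 and 3 UMIs in replicate 2 over Epcam, Cdh1, Krt8, Krt18, Krt19 and Cldn4, so that these barcodes could not be named from epithelial markers and keep the names of their gates. Of the 8 fibroblast markers, the Col1a1-high barcodes of replicate 2 held 7 at a summed 2267 CPM, against 426 CPM in Mgp-low barcodes of the same library, and the 6 endothelial markers were all at 0 in them. Markers of other cells were higher in the same 38 barcodes: the 4 monocyte markers summed to 903 CPM against 42.8 CPM in Mgp-low barcodes (Ly6c2 and Plac8, with Ccr2 and Chil3 at 0), the 8 macrophage markers to 702 against 149 CPM (6 detected, Cd68 and Mrc1 at 0) and the 7 pericyte and smooth muscle markers to 642 against 47.9 CPM (4 detected). In the 29 without immune UMIs these sums were 1079, 369 and 653 CPM. Which cell types contribute to the matrix levels of these 38 barcodes was not tested.

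The libraries stood apart before any gene of the matrix was considered. C1q macrophages of replicate 1 held 534 CPM of Xist, the RNA that silences one X chromosome, and 0 UMIs of the Y-linked Ddx3y, Eif2s3y, Kdm5d and Uty, whereas those of replicate 2 held 0 UMIs of Xist and 102.7 CPM of the Y-linked genes. Immune-negative barcodes held 29.9 CPM of Xist and 0 Y-linked UMIs in replicate 1, and 0 Xist UMIs and 40.6 CPM of Y-linked genes in replicate 2. Differences of host, tumour and library preparation between the replicates cannot be told apart, and what they contribute to the values below was not tested.

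Promoter sequence is shown for 3 of the genes on which the comparison of the libraries turns. Col3a1 was high in the immune-negative barcodes of both libraries, while Col1a2 and Bgn were high in replicate 2 and nearly without UMIs in replicate 1. The lines below give the 150 bases before the annotated start of each (RefSeq, GRCm38.p6, 5′ to 3′ on the gene's strand), with matches to the searched motifs in capitals. The windows lie at chr1:45311388-45311537 (+), chr6:4505468-4505617 (+) and chrX:73483451-73483600 (+).
Col3a1: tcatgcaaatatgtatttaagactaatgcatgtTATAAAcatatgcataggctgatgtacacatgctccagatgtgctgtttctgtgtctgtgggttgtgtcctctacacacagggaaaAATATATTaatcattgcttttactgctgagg
Col1a2: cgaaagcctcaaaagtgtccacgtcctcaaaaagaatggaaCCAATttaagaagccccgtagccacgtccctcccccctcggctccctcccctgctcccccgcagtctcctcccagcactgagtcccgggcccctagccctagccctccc
Bgn: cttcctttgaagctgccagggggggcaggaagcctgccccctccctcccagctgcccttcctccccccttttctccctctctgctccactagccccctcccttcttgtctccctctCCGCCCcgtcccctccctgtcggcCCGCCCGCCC
Motifs were read on both strands. The TATA box was searched as TATAAA and, in a variant, as TATATT, whose matches may overlap each other. The CCAAT box was searched by its name and the GC box as GGGCGG. The RefSeq promoter table held 24 of the 36 genes. Over all 32851 windows of this length in that table, TATAAA was in 7.57%, TATATT in 4.50%, CCAAT in 24.5% and GGGCGG in 28.6%, and in the 29 windows of the matched matrix genes they were in 4, 2, 7 and 14. A match is a description of the letters in the window and not a measured site. In the gene annotation (GENCODE M21, mm10) several members are neighbours: Col3a1 (chr1:45311538-45349706, + strand) and Col5a2 lie 24.614 kb apart, and on chromosome 10 Dcn and Lum lie 46.984 kb apart and Col6a1 and Col6a2 85.161 kb apart. On chromosome 8 Col4a1 and Col4a2 overlap at their starts, on opposite strands. Col1a2 starts at chr6:4504814 in this annotation, so its RefSeq window above lies inside the GENCODE gene.

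All 36 genes had at least 1 UMI in replicate 2 and 34 did in replicate 1. Without the gate genes Mgp and Col1a1, the other 34 took 5.92% of the UMIs of Col1a1-high barcodes and 0.615% of those of Mgp-positive barcodes, both in replicate 2. In Mgp-low barcodes they took 0.282% in replicate 1 and 0.405% in replicate 2, against 0.0443% and 0.0301% in C1q macrophages of the same libraries. With the gate genes included, the shares were 7.36% in Col1a1-high and 0.871% in Mgp-positive barcodes. A median of 17.5 of the 34 genes was detected per Col1a1-high barcode and of 9 per Mgp-positive barcode, against 3 (replicate 1) and 5 (replicate 2) per Mgp-low barcode and 0 per C1q macrophage in both libraries. These per-barcode medians are not at equal depth: the median UMI count was 1090 in Col1a1-high and 2988 in Mgp-positive barcodes, 1876 and 1965 in Mgp-low barcodes, and 1426 and 1215 in C1q macrophages. The map of levels shows the 36 genes by role.

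**Figure D1:**
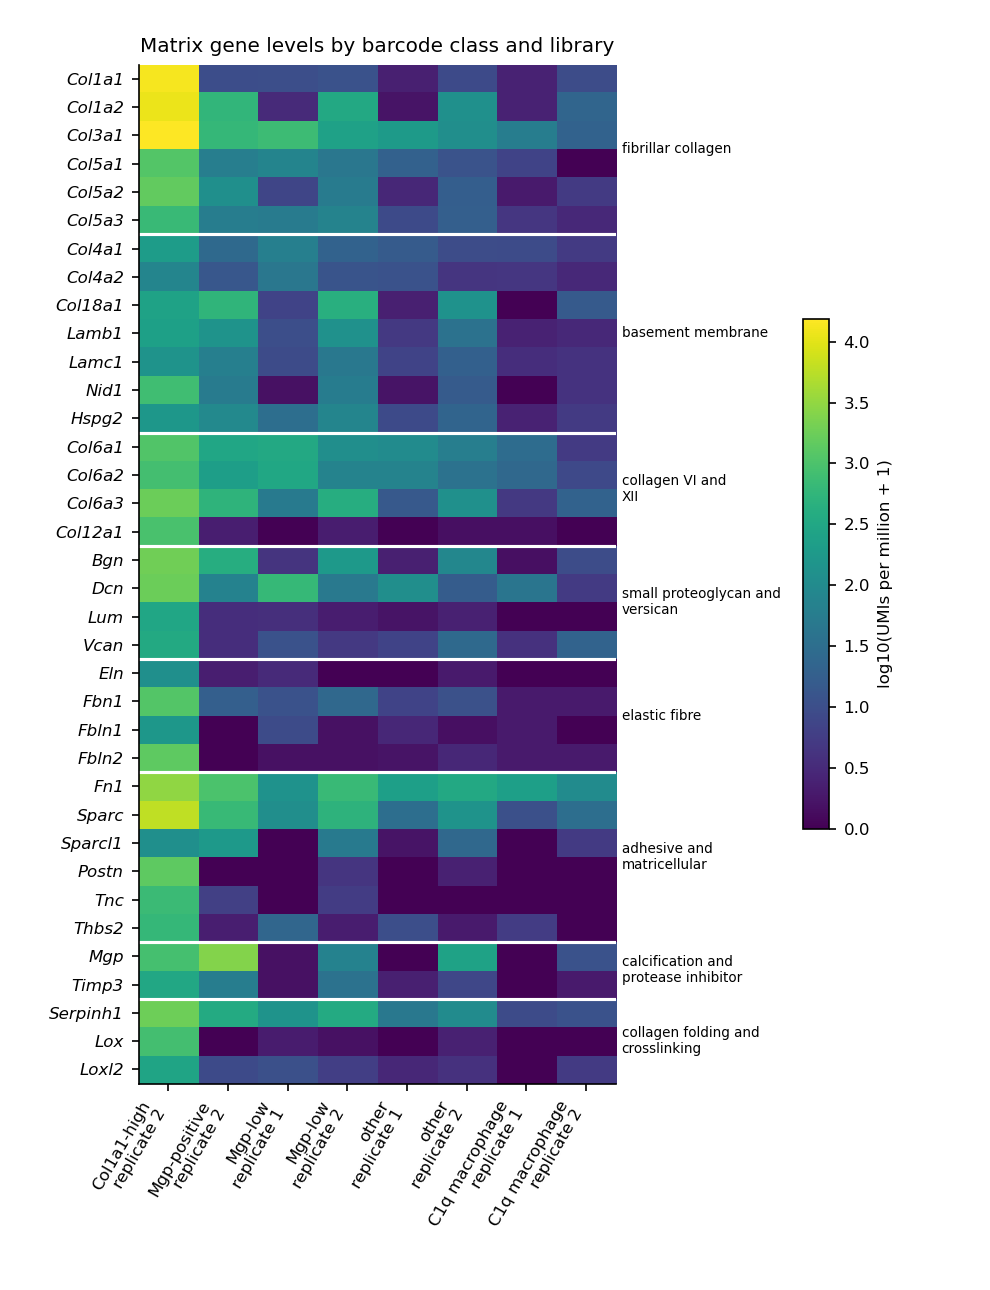
Levels of the 36 matrix genes (rows, grouped by role) in the barcode classes of each library (columns), coloured by log10(CPM + 1). Col1a1-high barcodes of replicate 2 have the brightest column, in C1q macrophages Fn1 is the lightest row, and the Mgp-low columns of replicate 1 and replicate 2 light up in different genes. The 1 Col1a1-high barcode of replicate 1 is left out, and Mgp-positive barcodes exist in replicate 2 alone.

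The first comparison set Mgp-low barcodes against C1q macrophages, which both libraries hold. The matrix genes were far higher in Mgp-low barcodes: 23 of the 25 that could be tested rose and 0 fell. Over all 9750 genes tested, 18.3% were higher and 21.3% were lower in Mgp-low barcodes. The median log2 fold change was 3.90 over the 25 genes and 0.02 over all genes tested. The test was edgeR's quasi-likelihood test on UMI sums per class and library with the library as a block, adjusted by Benjamini-Hochberg over all genes, with 6 sums and 2 residual degrees of freedom. Mgp and Col1a1 got no test as gate genes, and Col12a1, Lum, Eln, Fbln1, Fbln2, Postn, Tnc, Lox and Loxl2 fell under the filter on low counts. Col5a2, Col5a3, Col4a2, Lamb1, Lamc1, Nid1, Hspg2, Bgn, Fbn1, Sparcl1, Timp3 and Thbs2 had at most 9 UMIs in C1q macrophages of either library. They passed the filter through Mgp-low or other barcodes and could hardly fall, so the member counts lean to the higher side.

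Col3a1, the chain of collagen III that forms fibres together with collagen I, had 724.8 CPM in replicate 1 and 251.2 CPM in replicate 2 of Mgp-low barcodes, against 58.8 and 19.7 CPM in C1q macrophages. Both Mgp-low values lay above both C1q macrophage values, and the ratios of the libraries were close (12.3 and 12.7). The fitted log2 difference was 3.68 (SE 0.28) at an edgeR adjusted p of 3.9e-05. Col5a1 and Col5a3, chains of collagen V, which regulates fibre diameter, rose by log2 4.21 and 4.38 (edgeR adjusted p = 3.1e-04 and 1.2e-04). Col1a2 and Col5a2 also passed (log2 3.599 and 3.402, edgeR adjusted p = 9.8e-04 and 6.7e-04), but Col1a2 had only 4 UMIs in Mgp-low barcodes of replicate 1, all in 1 barcode, against 3 UMIs in C1q macrophages. In single libraries the difference is given as a log2 ratio with 0.5 added to each count. Without replicate 2 the ratio of Col1a2 was 0.45 on this scale, so its call rests on replicate 2. That of Col5a2 was 2.41 without replicate 2. Col5a1 had 78 UMIs in Mgp-low barcodes against 0 in C1q macrophages of replicate 2 (at least 14.1-fold higher), and without replicate 2 its log2 ratio was 3.62.

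All 7 basement membrane genes rose. Col18a1, which encodes the collagen from which endostatin is cleaved, had 5.88 CPM in replicate 1 and 437.1 CPM in replicate 2 of Mgp-low barcodes, against 0 UMIs and 14.5 CPM in C1q macrophages (log2 4.99, SE 0.37, edgeR adjusted p = 3.6e-05). Hspg2, the gene of perlecan, had 31.0 and 79.4 CPM in Mgp-low barcodes, against 1.51 and 4.15 CPM in C1q macrophages (log2 4.33, SE 0.37, edgeR adjusted p = 6.5e-05), about 20-fold in both libraries (20.6 and 19.1). The laminin chains Lamb1 and Lamc1 rose by log2 4.69 and 2.91, the laminin-binding Nid1 by 4.11, and the collagen IV chains Col4a1 and Col4a2 by 2.82 and 3.48. Nid1 had 1 UMI against 0 in replicate 1, so its call rests on replicate 2. Without replicate 2 the log2 ratio was 2.41 for Lamb1 and 1.58 for Lamc1, and without replicate 1 it was 5.66 and 3.68. For Col4a1 and Col4a2 it was 2.10 and 2.15 without replicate 1.

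The 3 chains of collagen VI, a beaded microfilament around cells, rose together. Col6a1 had 330.3 and 117.7 CPM in Mgp-low barcodes of replicates 1 and 2, against 29.2 and 4.15 CPM in C1q macrophages (log2 3.81, SE 0.37, edgeR adjusted p = 1.2e-04). Col6a2 and Col6a3 rose by log2 3.58 and 4.14. The value of Col6a1 was 4.66 without replicate 1 and that of Col6a3 3.55 without replicate 2. Among the proteoglycans, Dcn (decorin, which binds collagen fibrils) had 645.7 and 48.4 CPM in Mgp-low barcodes, against 41.7 and 4.15 CPM in C1q macrophages (log2 3.90, SE 0.30, edgeR adjusted p = 4.1e-05). Bgn (biglycan, its close relative) rose by log2 4.28, with few UMIs in replicate 1 (6 against 1), and its value was 2.20 without replicate 2. Fbn1, whose product fibrillin-1 forms the microfibrils of elastic fibres, rose by log2 3.90, and its value was 3.05 without replicate 2.

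Sparc, a collagen-binding matricellular protein, had 114.4 and 514.3 CPM in Mgp-low barcodes of replicates 1 and 2, against 9.55 and 31.1 CPM in C1q macrophages (log2 3.90, SE 0.24, edgeR adjusted p = 1.3e-05). Serpinh1, the collagen chaperone of the endoplasmic reticulum, had 141.7 and 357.7 CPM in Mgp-low barcodes, against 8.05 and 10.4 CPM in C1q macrophages (log2 4.65, SE 0.29, edgeR adjusted p = 1.4e-05). For both genes, both Mgp-low values lay above both C1q macrophage values. Timp3, a matrix-bound inhibitor of metalloproteinases, rose by log2 4.89, Sparcl1 by 3.595 and Thbs2 (thrombospondin 2) by 2.45. Timp3 had 1 UMI in Mgp-low barcodes of replicate 1 and Sparcl1 had 0 UMIs in both classes of that library, so these calls rest on replicate 2. Thbs2 had 43 UMIs in Mgp-low barcodes of replicate 1 against 9 in C1q macrophages, but 2 against 0 in replicate 2, so its call rests on replicate 1.

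Fn1 and Vcan did not pass the test. Fn1, the gene of fibronectin, had 133.6 and 678.8 CPM in Mgp-low barcodes of replicates 1 and 2, against 226.3 and 102.7 CPM in C1q macrophages. The classes thus stood in opposite order in the libraries, with a ratio of 0.591 (95% interval 0.504 to 0.691) in replicate 1 and 6.61 (5.38 to 8.20) in replicate 2 (log2 1.04, SE 0.65, edgeR adjusted p = 0.240). In C1q macrophages, 20.6% of barcodes of replicate 1 and 10.4% of replicate 2 held an Fn1 UMI, and 15.98% and 7.66% did after thinning to 1000 UMIs per barcode. Vcan, the large proteoglycan versican, had 10.2 and 3.94 CPM in Mgp-low barcodes, against 3.02 and 20.7 CPM in C1q macrophages (log2 -0.26, SE 0.86, edgeR adjusted p = 0.832). In the other barcodes Vcan had 5.90 CPM in replicate 1 and 26.3 CPM in replicate 2.

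Within a library, matrix levels in C1q macrophages were a small percent of those in Mgp-low barcodes for most genes with 20 or more UMIs in Mgp-low barcodes. This minimum lets in genes that are high in Mgp-low barcodes, so the percents lean low. It leaves out Vcan, which had 7 UMIs in Mgp-low barcodes of replicate 2 against 20 in C1q macrophages (ratio 0.190, 95% interval 0.0679 to 0.468). Many of these percents rest on few UMIs in C1q macrophages. Of the genes with 20 or more UMIs in Mgp-low barcodes, gate genes aside, the level in C1q macrophages was a median 8.04% of that in Mgp-low barcodes over 14 genes of replicate 1 and 5.52% over 23 genes of replicate 2. Leaving out Fn1, the 13 genes of replicate 1 lay between 4.87% (Hspg2) and 19.7% (Thbs2), and the 22 genes of replicate 2 between 0 (Col5a1, 0 UMIs in C1q macrophages) and 21.0% (Col4a1, 4 UMIs). Fn1 stood at 169.3% (95% interval 144.7 to 198.4) in replicate 1 and at 15.1% (12.2 to 18.6) in replicate 2. In the opposite direction, the summed C1q genes of Mgp-low barcodes stood at 1.31% and 0.802% of their level in C1q macrophages. The share of C1q macrophages with a Col3a1 UMI was 4.39% in replicate 1 and 2.56% in replicate 2, with up to 20 UMIs in 1 barcode of replicate 1. What free RNA and unmarked doublets contribute to these values was not tested.

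**Figure D2:**
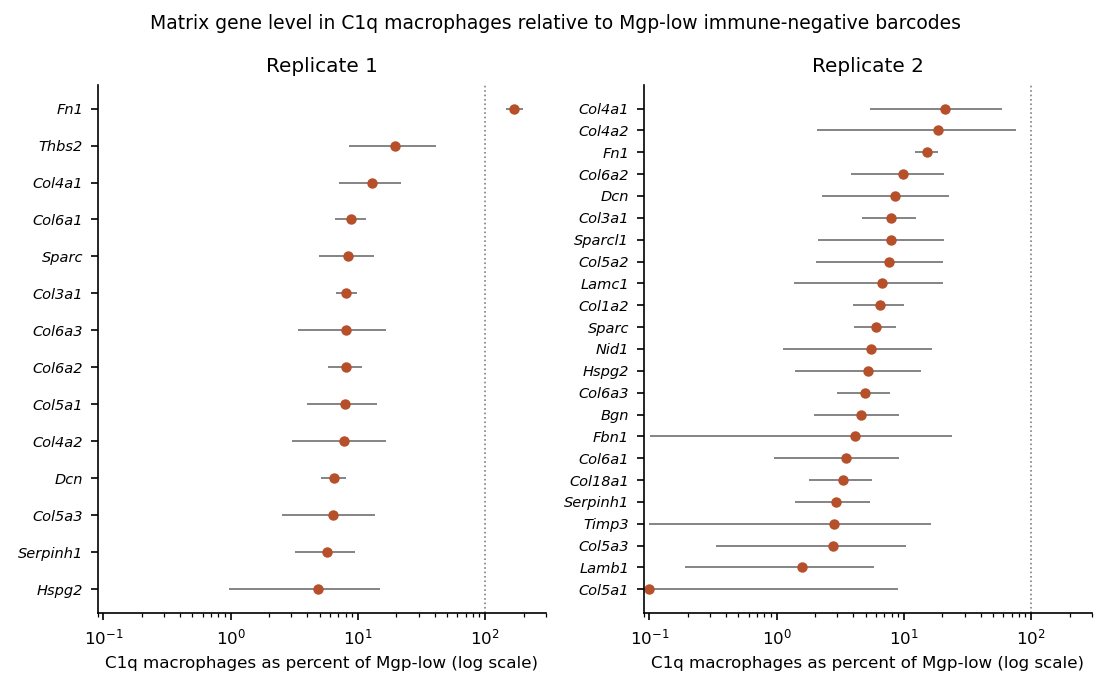
Level of each matrix gene in C1q macrophages as a percent of its level in Mgp-low barcodes, for replicate 1 (left) and replicate 2 (right) on a log axis, for genes with 20 or more UMIs in Mgp-low barcodes. Bars are conditional binomial 95% intervals, the dotted line marks equal levels, and a gene with 0 UMIs in C1q macrophages is drawn at 0.1. Most genes lie between 2% and 20%, and Fn1 of replicate 1 lies past the line at 169.3%.

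The second comparison set the immune-negative barcodes of replicate 1 against those of replicate 2. With 1 library on each side there is no test, and the intervals cover counting error only. Of the 24 matrix genes with 50 or more UMIs over both libraries, 1 was at least 4-fold higher in replicate 1 and 13 were at least 4-fold lower. Mgp is counted among the 13, because the immune-negative barcodes were not split by Mgp here. Over the 6268 genes with as many UMIs, 0.893% were at least 4-fold higher and 6.32% at least 4-fold lower. The median log2 ratio was -2.41 over the 24 genes and -0.47 over all of these genes. Of the 13 lower genes, 10 reached 50 UMIs only through replicate 2, where they are high, so these counts lean to that side. Of the 13 matrix genes with 50 or more UMIs in replicate 1 alone, a filter chosen after seeing the data, 1 was at least 4-fold higher and 3 at least 4-fold lower, where 1.8% and 1.42% of 2892 genes were, and the median log2 ratio was 0.65 over the 13 and -0.22 over all. With 50 or more in replicate 2 alone it was 1 and 13 of 23, where 0.231% and 7.85% of 4766 genes were. In C1q macrophages of the same libraries 5 matrix genes had enough UMIs, of which 2 were at least 4-fold higher in replicate 1 and 0 lower, where 1.79% of 5143 genes passed in either direction. They were Dcn (41.7 CPM in replicate 1 against 4.15 CPM in replicate 2) and Col6a1 (29.2 against 4.15 CPM), named after their values were seen. Both reached 50 UMIs only through replicate 1, where they are high (Dcn 83 against 4 UMIs, Col6a1 58 against 4). The count in C1q macrophages thus leans to replicate 1.

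Dcn was the gene at least 4-fold higher in replicate 1, with 645.7 CPM in replicate 1 against 55.1 CPM in replicate 2, a ratio of 11.7 (95% interval 9.84 to 14.1). It was seen in 53.4% of the Mgp-low barcodes of replicate 1 and in 8.12% of those of replicate 2. Col3a1 was 1.99-fold higher (724.8 against 363.9 CPM), Col6a1 1.89-fold (330.3 against 174.5 CPM) and Col6a2 2.60-fold (308.4 against 118.7 CPM). Col4a1 and Col4a2, whose chains assemble into 1 trimer, were 2.91-fold and 3.88-fold higher, and Thbs2 had 43 UMIs in replicate 1 against 3 in replicate 2, under the minimum for the count.

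Other collagen chains were lower in replicate 1. Col1a2 had 2.14 CPM in replicate 1 against 407.2 CPM in replicate 2 (ratio 0.00525, interval 0.00143 to 0.0135), and Col6a3 had 49.7 against 434.6 CPM (ratio 0.114), although the other 2 chains of collagen VI were higher. Col5a2 had 6.41 against 74.6 CPM, while Col5a1 had 77.0 against 49.2 CPM. Of the basement membrane genes, Col18a1 had 5.88 against 468.5 CPM, Nid1 0.534 against 55.8 CPM, Lamb1 9.09 against 133.5 CPM and Lamc1 8.02 against 51.2 CPM. Bgn had 3.21 CPM in replicate 1 against 251.8 CPM in replicate 2, the reverse of its relative Dcn.

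Mgp, whose product matrix Gla protein inhibits calcification, had 1 UMI among the 640 immune-negative barcodes of replicate 1 and 2131 UMIs among the 862 of replicate 2 (0.534 against 832.1 CPM). This set the Mgp classes: replicate 1 had no barcode with more than 1 Mgp UMI, while replicate 2 had barcodes with up to 235. Sparcl1 had 0 UMIs in replicate 1 and 232 in replicate 2, where 0 allows up to 1.60 CPM, so it was at most 0.0177 of the level in replicate 2. Timp3 had 1 UMI in replicate 1 against 111 in replicate 2, Fn1 133.6 against 773.5 CPM (ratio 0.173) and Sparc 114.4 against 558.0 CPM (ratio 0.205). Serpinh1, Hspg2 and Fbn1 were lower by less than 4-fold (ratios 0.395, 0.371 and 0.441), and Col5a3 was close in both libraries (55.1 against 69.1 CPM, ratio 0.797, interval 0.619 to 1.02).

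**Figure D3:**
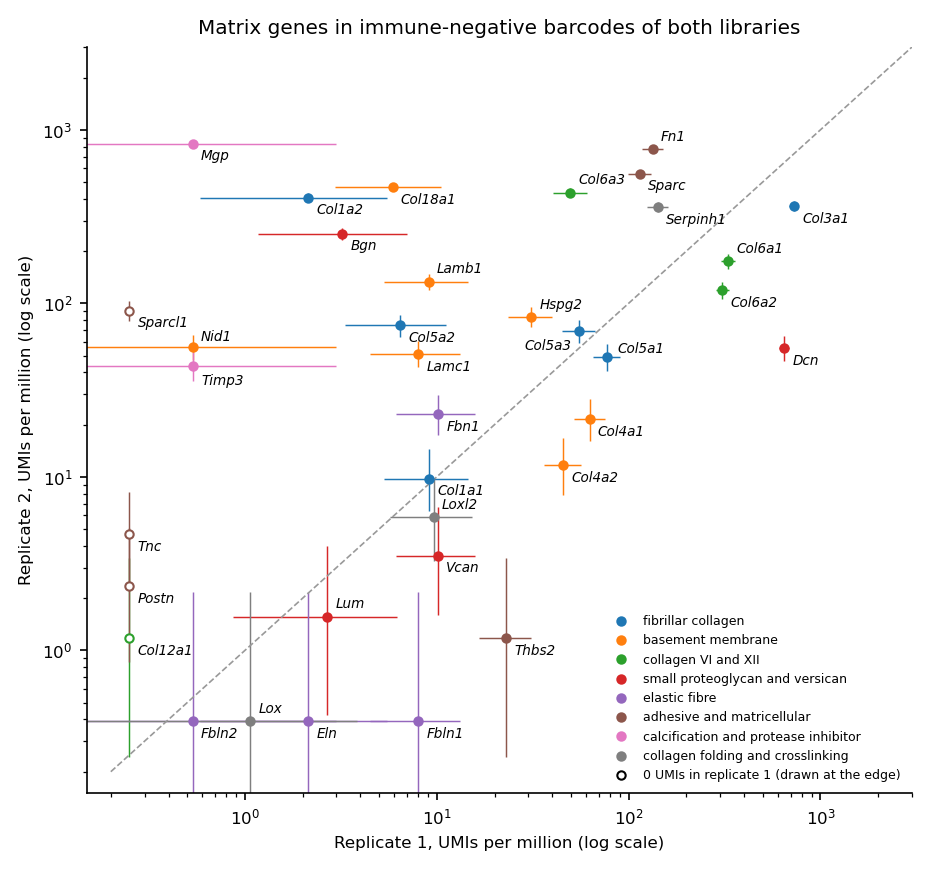
Levels of the 36 matrix genes in immune-negative barcodes of replicate 1 (horizontal) and replicate 2 (vertical), in CPM on log axes, with exact Poisson 95% intervals and colours by role. The dashed line marks equal levels and open circles have 0 UMIs in replicate 1. Dcn, Col3a1, Col6a1, Col6a2, Col4a1 and Col4a2 lie on the replicate 1 side, and Mgp, Col1a2, Col18a1 and Bgn lie far on the replicate 2 side.

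The third comparison, within replicate 2 alone, set the 209 Mgp-positive against the 653 Mgp-low barcodes. It asks which matrix genes accompany Mgp. With 1 library there is no test. Of the 22 matrix genes with 50 or more UMIs over both classes, 6 were at least 2-fold higher in Mgp-positive barcodes and 0 at least 2-fold lower. Over 4765 genes 0.86% were at least 2-fold higher and 1.05% at least 2-fold lower. The median log2 ratio was 0.45 over the 22 genes and 0.0006 over all of these genes. The 6 were also among the 20 matrix genes with 50 or more UMIs in Mgp-low barcodes alone, where 0 were at least 2-fold lower, and 0.411% of 3651 genes were higher and 0.822% lower. Mgp itself, which defines the classes, had 2551 CPM in Mgp-positive against 71.0 CPM in Mgp-low barcodes.

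Chains of collagens III, V and VI were among the 6. Col6a2 had 218.9 CPM in Mgp-positive against 74.4 CPM in Mgp-low barcodes (ratio 2.94, interval 2.33 to 3.72), and Col6a1 had 302.9 against 117.7 CPM (ratio 2.57, interval 2.13 to 3.11). Col3a1 had 618.4 against 251.2 CPM (ratio 2.46, interval 2.16 to 2.81) and Col5a2, the chain gene beside it on chromosome 1, had 120.9 against 54.1 CPM (ratio 2.24, interval 1.67 to 3.0). Sparcl1, a relative of Sparc, had 175.6 against 53.0 CPM (ratio 3.32, interval 2.53 to 4.36), and Bgn had 409.7 against 181.9 CPM (ratio 2.25, interval 1.92 to 2.64). Col1a2 was 1.67-fold higher (563.7 against 338.0 CPM), Fn1 1.45-fold (987.4 against 678.8 CPM) and Col6a3 1.32-fold, each with an interval above 1. No basement membrane gene reached 2-fold: Col18a1 had a ratio of 1.23 (539.5 against 437.1 CPM), Hspg2 1.17, Lamb1 1.07 and Nid1 0.971. The chaperone Serpinh1 stood at 360.1 CPM in Mgp-positive against 357.7 CPM in Mgp-low barcodes (ratio 1.01, interval 0.872 to 1.16). Fbn1 (ratio 0.703) and Col5a3 (0.770) were on the lower side, with intervals that include 1.

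**Figure D4:**
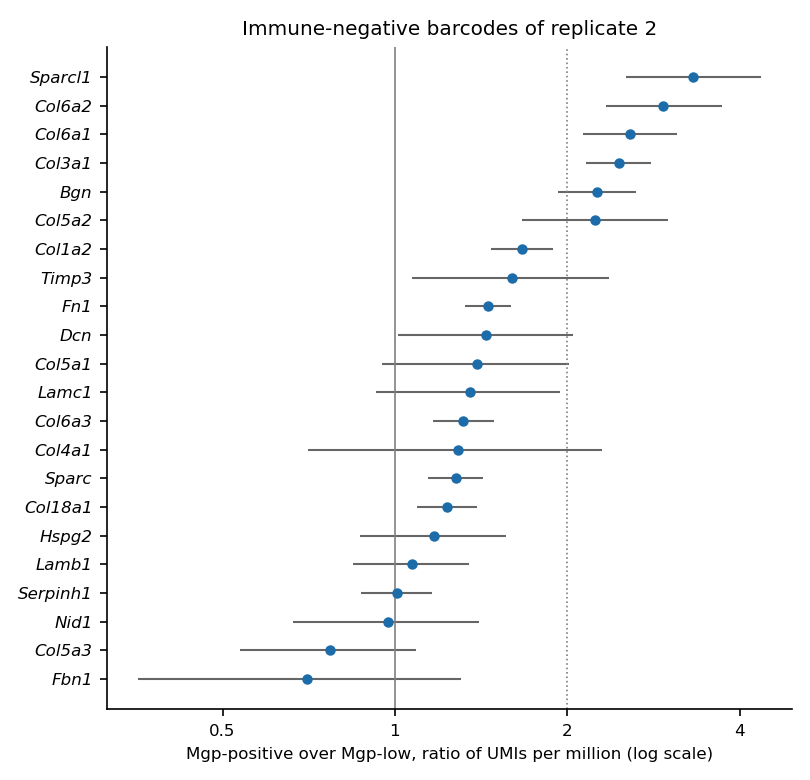
Ratio of the level in Mgp-positive over Mgp-low immune-negative barcodes of replicate 2 (log axis) for the 22 matrix genes with 50 or more UMIs over both classes, gate genes left out. Bars are conditional binomial 95% intervals, the solid line marks equal levels and the dotted line 2-fold. Sparcl1, Col6a2, Col6a1, Col3a1, Bgn and Col5a2 lie past the dotted line and the basement membrane genes shown lie between 0.971 and 1.35.

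The 2 sides of the gate were not sharply divided. Barcodes with 1 Mgp UMI, just outside it, numbered 126, and those with 2, just inside it, numbered 51. Bgn had 236.0 and 279.8 CPM in these bins and Sparcl1 had 87.2 and 72.8 CPM. Over the bins from 0 to 13 or more Mgp UMIs, Sparcl1 ran from 43.3 CPM in 527 barcodes to 300.3 CPM in 41 barcodes, Bgn from 166.7 to 611.8 CPM, and Col6a1 from 113.3 to 411.6 CPM. Serpinh1 had 347.9 CPM at 0 and 339.3 CPM at 13 or more Mgp UMIs. These genes were chosen by their ratios across the Mgp gate in the same barcodes. A rise over the bins, or its absence, therefore follows in part from that choice and is given as a description. A median depth of 2988 UMIs in Mgp-positive against 1965 UMIs in Mgp-low barcodes goes with the split. Of the 6 genes, 5 also reached 2-fold among barcodes of 1500 to 5000 UMIs (Col5a2 had log2 0.97) and 5 after thinning to 1000 UMIs (Bgn had log2 0.97), and 4 did under a filter of 500 or more genes and under 5% mitochondrial UMIs, where Col3a1 had log2 0.89 and Col5a2 0.67.

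**Figure D5:**
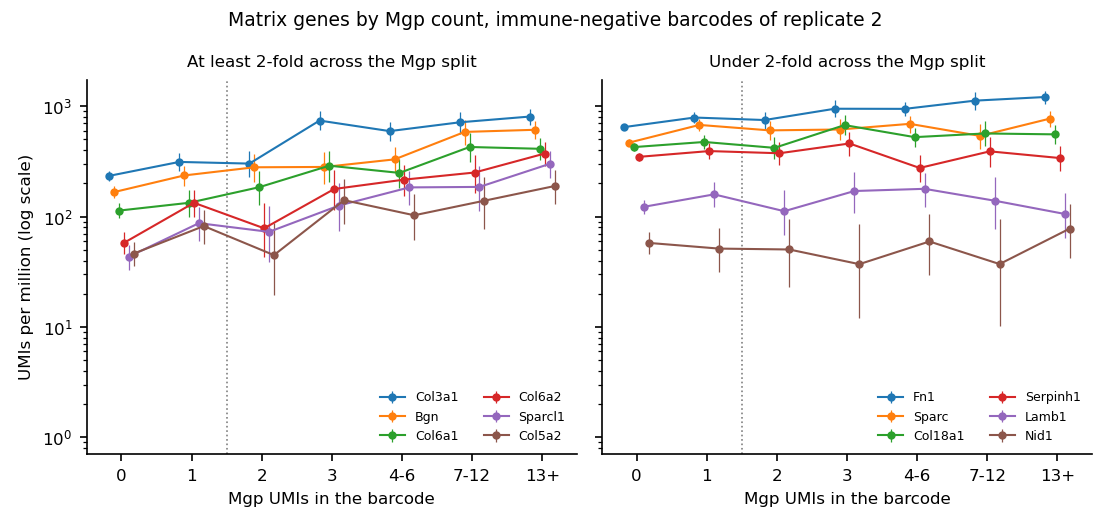
Levels of 12 matrix genes (CPM, log axis) in immune-negative barcodes of replicate 2 by the number of Mgp UMIs in the barcode, with exact Poisson 95% intervals. The left panel shows the 6 genes at least 2-fold higher in Mgp-positive barcodes and the right panel 6 others, and the dotted line marks the gate between 1 and 2 UMIs. Sparcl1 runs from 43.3 to 300.3 while Serpinh1 stays between 275.9 and 459.7.

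Some matrix genes were lower in proliferating immune-negative barcodes. Among immune-negative barcodes of 1500 to 5000 UMIs, those with 3 or more UMIs of Mki67, Top2a, Ube2c, Birc5 and Cdk1 together (63 in replicate 1, 110 in replicate 2) were set beside those with 0 (181 and 205). In replicate 1, 2 of the 8 matrix genes with 50 or more UMIs had a ratio whose interval lay below 1 and 0 had one above 1, and in replicate 2 it was 11 and 0 of 20. Over all genes with as many UMIs, 9.47% lay below 1 and 22.5% above 1 in replicate 1 (1067 genes), and 8.76% and 13.3% in replicate 2 (1941 genes). Col3a1 had 467.6 CPM in proliferating against 1068 CPM in the other barcodes of replicate 1 (ratio 0.438, interval 0.349 to 0.546), and 300.7 against 482.0 CPM in replicate 2 (ratio 0.624, interval 0.493 to 0.785). Dcn had ratios of 0.431 (0.336 to 0.549) and 0.457 (0.249 to 0.799). In replicate 2 the others included Mgp (ratio 0.374), Nid1 (0.280), Fn1 (0.545) and Col18a1 (0.675), while Fn1 of replicate 1 had an interval that includes 1 (0.611, 0.352 to 1.02). Serpinh1 had intervals that include 1 in both libraries, with ratios of 1.19 (0.764 to 1.84) and 1.17 (0.926 to 1.47). Median depth also differed, with 3198 UMIs in proliferating against 2142 UMIs in the other barcodes of replicate 1 and 3165 against 2390 UMIs in replicate 2. These are values without a test.

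The last comparison set the 38 Col1a1-high barcodes of replicate 2 against the Mgp-low barcodes of that library. Of the 24 matrix genes with 50 or more UMIs over both classes, 22 were at least 2-fold higher in Col1a1-high barcodes and 0 at least 2-fold lower. Over 3764 genes 14.9% were at least 2-fold higher and 16.7% at least 2-fold lower. The median log2 ratio was 3.46 over the 24 genes and -0.02 over all of these genes. Of the 22, Fbln2, Postn, Col12a1 and Fbn1 reached 50 UMIs only through the Col1a1-high class and so had to differ. With 50 or more UMIs in Mgp-low barcodes alone, a filter chosen after seeing the data, 18 of 20 matrix genes were at least 2-fold higher and 0 lower, where 13.3% of 3651 genes were higher and 17.3% lower. There is no test, and a gate on 1 collagen gene favours any gene expressed along with it.

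Col1a1, the gate gene, had 13502 CPM in Col1a1-high barcodes against 10.1 CPM in Mgp-low barcodes, with at most 59 UMIs in a barcode. Col1a2, which encodes the other chain of collagen I, had 11596 CPM in Col1a1-high against 338.0 CPM in Mgp-low barcodes (ratio 34.3, interval 30.6 to 38.5) and was seen in 38 of the 38 Col1a1-high barcodes. Col3a1 had 15267 CPM in Col1a1-high against 251.2 CPM in Mgp-low barcodes (ratio 60.8), Col5a1 1144 against 43.9 CPM (26.0) and Col5a2 1505 against 54.1 CPM (27.8). Fbn1 was 45.1-fold higher, Dcn 36-fold, Sparc 12-fold (6159 against 514.3 CPM), Col6a2 11.6-fold and Bgn 10.5-fold. Smaller ratios were found for Col6a1 (9.54), Col5a3 (9.17), Timp3 (8.77), Serpinh1 (5.05), Fn1 (4.46, with 3029 against 678.8 CPM) and Col6a3 (4.41), each with an interval above 2.

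Further genes had few UMIs in the other classes of replicate 2. Fbln2 (fibulin 2, an elastic fibre and basement membrane linker) had 71 UMIs in Col1a1-high against 1 UMI in Mgp-low barcodes, from a class with 49846 UMIs against one with 1775239. Postn (periostin) had 70 against 6 UMIs, Col12a1 (a fibril-associated collagen) 48 against 2, Lox (lysyl oxidase, which crosslinks collagen and elastin) 43 against 1, Tnc (tenascin C) 35 against 8, Thbs2 31 against 2, Lum (lumican) 15 against 2, Loxl2 14 against 9, Fbln1 8 against 1 and Eln (elastin) 6 against 0 (at least 71.2-fold higher). Lox was seen in 25 and Postn in 29 of the 38 barcodes. In C1q macrophages of replicate 2, Postn, Tnc, Lox, Lum, Eln, Fbln1, Col12a1 and Thbs2 were at 0 UMIs, which allows up to 3.11 CPM. Vcan had 341.1 CPM in Col1a1-high barcodes, against 3.94 CPM in Mgp-low barcodes.

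Basement membrane genes spread widely in the same comparison. Col18a1 was lower in Col1a1-high barcodes (260.8 against 437.1 CPM, ratio 0.597, interval 0.316 to 1.03) and Lamb1 was 1.84-fold higher (interval 0.938 to 3.28), and these were the 2 genes under 2-fold. Hspg2 (ratio 2.02) and Lamc1 (3.04) rest on 8 and 7 UMIs, whereas Nid1 had 39 UMIs (782.4 against 56.3 CPM, ratio 13.9). Col4a1 and Col4a2, with 10 and 4 UMIs in Col1a1-high barcodes, did not reach the minimum of 50. Sparcl1 had 6 UMIs in Col1a1-high barcodes (ratio 2.27, interval 0.814 to 5.14), and at a gate of 5 or more Col1a1 UMIs its log2 ratio turned to -0.23. In the 29 Col1a1-high barcodes with 0 immune UMIs the levels were 16321 CPM for Col3a1, 12120 CPM for Col1a2 and 6103 CPM for Sparc. The single Col1a1-high barcode of replicate 1 held 3 UMIs of Col1a1, 38 of Col3a1 and 0 of Col1a2.

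Other matrix and matrix-handling genes were read from lists of 29 other collagens, 55 glycoproteins, 15 proteoglycans, 28 genes of collagen modification and 25 matrix receptors. The share of all genes tested stands beside each comparison, and a list near it is not set apart by its count. In Mgp-low barcodes against C1q macrophages, where 18.3% of all genes tested were higher and 21.3% lower, 4 of 5 tested collagens rose (among them Col27a1, Col8a1 and Col7a1, log2 4.93, 4.80 and 4.17) and Col14a1 fell by 3.44 on the log2 scale, by edgeR adjusted p as above. Of 24 tested glycoproteins 16 rose and 4 fell, with Aebp1 (log2 4.93), Ltbp1 (4.69) and Ntn1 (4.45) higher and Spon1 (-5.04), Thbs1 (-3.70) and Emilin2 (-3.64) lower. Aebp1 had 1.60 against 0 CPM in replicate 1, so its call rests mainly on replicate 2. Of 21 tested genes of collagen modification 11 rose and 1 fell: Loxl1, Plod2 (lysyl hydroxylase 2) and Fkbp10 had log2 4.71, 4.69 and 3.97, and the transglutaminase Tgm2 had -3.05. Loxl1 had 0 CPM in both classes of replicate 1, so its call rests on replicate 2. Srgn, the proteoglycan of leukocyte granules and the only one of its list tested, had 26.2 and 41.1 CPM in Mgp-low barcodes against 636.1 and 1130 CPM in C1q macrophages (log2 -4.62). Of 15 tested receptors 5 rose, led by Sdc2, Mrc2 and Ddr2 (log2 4.55, 3.89 and 3.56), and 3 fell, Itga9, Sdc3 and Itgb5 (-4.37, -3.25 and -2.51). The median log2 difference was 4.17 over the tested collagens, 2.60 over the glycoproteins, 1.59 over the modification genes and 0.049 over the receptors, against 0.02 over all genes tested.

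In the Mgp split of replicate 2, 0.86% of all genes were at least 2-fold higher and 1.05% lower. Of these lists, 2 of 4 collagens, 1 of 17 glycoproteins and 1 of 18 modification genes were at least 2-fold higher. Of 1 proteoglycan and 12 receptors, 0 were. The higher genes were Spp1 (osteopontin, 2596 CPM in Mgp-positive against 891.7 CPM in Mgp-low barcodes, ratio 2.91), Col4a5 (2.79), Tgm2 (2.33) and Col16a1 (2.21). Srgn was lower (0.402). Col4a5, Tgm2 and Col16a1 had 16.9, 17.5 and 27.6 CPM in Mgp-low barcodes and passed the filter only with their Mgp-positive UMIs. These counts thus lean to the higher side. Between the libraries, 0 genes of the 5 lists were at least 4-fold higher in immune-negative barcodes of replicate 1, and 1 of 5 collagens, 8 of 20 glycoproteins, 0 of 1 proteoglycans, 3 of 21 modification genes and 5 of 13 receptors were at least 4-fold lower, beside 0.893% higher and 6.32% lower over all genes. As for the 36 genes, the filter lets in genes that are high in replicate 2 alone. Lama5 had 0.534 CPM in replicate 1 against 75.4 CPM in replicate 2, Aebp1 1.60 against 176.5 CPM and the integrin chain Itga6 0.534 against 66.8 CPM. In Col1a1-high against Mgp-low barcodes of replicate 2, 2 of 2 collagens, 8 of 16 glycoproteins, 1 of 1 proteoglycans, 8 of 14 modification genes and 6 of 12 receptors were at least 2-fold higher and 1 glycoprotein, Tgfbi, at least 2-fold lower (80.2 against 192.1 CPM), beside 14.9% higher and 16.7% lower over all genes. Thbs1 (842.6 against 11.8 CPM, ratio 71.2), Loxl1 (461.4 against 32.7 CPM, ratio 14.1) and Bmp1 (361.1 against 36.1 CPM, ratio 10.0) were among the higher genes. The filter adds the UMIs of both classes, so it lets in genes that are high in Col1a1-high barcodes alone. Both collagens, Col8a1 (260.8 against 26.5 CPM) and Col16a1 (180.6 against 27.6 CPM), passed it only with their Col1a1-high UMIs. Thbs1 did too, while Loxl1 and Bmp1 passed on their Mgp-low UMIs alone. The counts of this comparison thus lean to the higher side.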

How the data were processed

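The deposited files hold raw UMI counts per gene and barcode, with no normalisation by the authors, per the file headers, which name Cell Ranger 6.0.1. The submitters' processing notes also name Seurat 4.0.1 and mm10, and the authors' gene annotation is not given in the sources used here. Totals were 5688000 and 5862342 UMIs over 2749 and 2937 barcodes. Barcodes with 300 or more genes and under 10% mitochondrial UMIs were kept (2388 and 2837), and Scrublet (scanpy 1.11.5) doublets were left out (10 and 36, 0.880%). UMIs were summed per class and library. Sums of classes with 10 or more barcodes in both libraries (3 classes, 6 sums) entered edgeR 4.0.16 (R 4.3.3, TMM, filterByExpr, quasi-likelihood test, library block, Benjamini-Hochberg, threshold 0.05). Classes come from the same library, so the block pairs them by construction. The p-values rest only on how differences among the 3 classes, other barcodes included, varied between these 2 libraries. The spread of each gene was moderated by that of the other genes. The planned tests of the Mgp and Col1a1 classes were replaced by ratios within replicate 2 with conditional binomial 95% intervals, because replicate 1 lacks those classes. Intervals and limits for a count of 0 (3 counts) cover counting error only. All members are accounted for, and of the other lists the 3 called genes with the largest change per direction are named. The members and lists were chosen with earlier results of these data known. Alternatives were DESeq2 1.42.0, other scaling, filters, gates, depths and doublet rules, and leaving out each library. The words in the file names that the labels do not explain were not used.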

Additional observations from a re-analysis of the deposited data

How the results depend on the processing

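For Mgp-low barcodes against C1q macrophages, 23 matrix genes and 3869 genes in all were called. The direction of the 23 held in every alternative run that tested them, with limits in single libraries. In replicate 1 Sparcl1 has 0 UMIs in both classes and Nid1 and Timp3 have 1 against 0, which show no direction. Thbs2, with 2 against 0 in replicate 2, shows none there. In replicate 1 the ratios of Col1a2 (4 against 3 UMIs) and Bgn (6 against 1) have intervals that include 1. Without the replicate block the counts were 12 and 2220, with each barcode thinned to 1000 UMIs all genes called numbered 2159, and DESeq2 called 22 and 2634. Vcan, which was not called, changed sign with DESeq2 (log2 0.066), with a C1q gate of 10 UMIs (0.21) and without replicate 2 (from -2.33 to 1.67 over the libraries left out), and Fn1 ran from -0.76 to 2.72. With 1 library no residual degree of freedom is left, so leaving out a library gives values and no count of calls. Of 91 genes past 2-fold across the Mgp split, thinning left 49, a gate of 4 Mgp UMIs gave 168 and a minimum of 50 UMIs in Mgp-low barcodes alone gave 45. For Col1a1-high barcodes, thinning left 14 of 22 matrix genes and 430 of 1190 genes, and barcodes of 1500 to 5000 UMIs left 618 genes; at a gate of 5 Col1a1 UMIs the log2 ratio of Sparcl1 was -0.23. Between the libraries, thinning left 175 of 452 genes, and a minimum of 50 UMIs in replicate 1 alone gave 4 matrix genes and 93 genes, against 14 and 452. Thinning and the depth band leave fewer UMIs, so that fewer genes reach 50. DESeq2, other scaling, no filter, no block and leaving out a library were not run for the Mgp and Col1a1 classes, which 1 library holds. Several genes have under 10 UMIs in a class, which limits their ratios.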
